A study of Vitis vinifera with 54 samples.

Results

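The genes described here kept their transcript level, on average over 5 ecological zones, from the enlargement period to the color transition period and fell between the color transition period and the maturity period of Chardonnay berries. They were chosen by a rule on the deposited table. Each library was divided by a scaling factor, a group mean was taken of log2(scaled TPM + 1), and a gene was kept when its mean fell by at least 1 from color transition to maturity in at least 3 of the zones HJZ, ZHYS, CC, XG and XLS, with a mean difference between color transition and enlargement over these 5 zones between -1 and 1. TPM is a transcript level corrected for gene length and given as a share of its library, and a difference of 1 on the log2 scale is a doubling or halving of a gene far above 1 TPM. Of 25133 genes, 168 met the rule. The zone HSB took no part in the choice, so the fall from color transition to maturity was tested in HSB.

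The series is RNA-seq of berry flesh, without skin or seeds, of Vitis vinifera L. Chardonnay, a white wine cultivar, grown in 6 zones of Ningxia. Berries were taken at 40 DAP (E, the enlargement period), 80 DAP (V, the color transition period) and 120 DAP (M, the maturity period), where DAP counts days from early flowering. Each of the 18 groups, named by stage and zone as in V-HSB, had 3 biological replicates of 15 berries each, which gave 54 libraries, and no group carried a treatment or a genetic change. The zones differed in place and vineyard together, and each stage was sampled at a single day count, so site, management and the ripeness reached at that day cannot be told apart. In flesh sampled in bulk, fewer cells of a type and less RNA per cell cannot be told apart either.

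A grape berry first enlarges while it is hard and acidic. At veraison, the color transition, it softens and begins to take up sugar into the vacuoles of the flesh, and it then expands again until maturity. Large sets of transcripts are known to change at veraison itself. The rule used here looked instead for transcripts that hold their mean level up to the color transition samples and drop afterwards.

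Of the 168 genes, 161 were found in the RefSeq gene table and all 161 are protein coding. Only 7 have a symbol of their own. TIP1;1 is a tonoplast intrinsic protein, a water channel of the vacuole membrane. SIRK is a Shaker-type channel that carries potassium into the cell and is known from grapevine guard cells. CBL07 is a calcineurin B-like calcium sensor, a class of proteins that bind and steer CIPK protein kinases. NIN1 is a neutral invertase, which splits sucrose in the cell, and MYBC2-L1 is an R2R3-MYB repressor of flavonoid genes. The other two are VVYS1 and BIG8.1. The remaining genes carry only LOC symbols or NCBI Gene numbers and are named by these.

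The ripening-induced gene GRIP4 separated the first stage from the later ones, with group means of 13.8 to 259 scaled TPM at E and 11678 or more at V and M. V-HSB stood apart from the other color transition groups. GRIP4 was at 11678 ± 3705 scaled TPM (SD, n = 3) in V-HSB and between 27793 and 43344 in the other V groups, and GRIP22 was at 510 ± 180 (SD, n = 3) against 3095 to 11709. The median of all genes in the V-HSB libraries was 4.17 to 4.29 scaled TPM, beside 4.12 to 4.16 in E-HSB and 2.73 to 3.23 in the V libraries of the other zones. One library also stood apart within its group. V-XLS replicate 2 had a median over the 168 genes of 41.1 scaled TPM, whereas replicates 1 and 3 had 9.998 and 6.70.

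The 168 genes were of moderate abundance. Their mean level over the 15 V libraries of the 5 zones had a median of 32.4 scaled TPM and ran from 1.16 to 1949. In 31 genes it was at or above 100, 14 genes stayed under 10 scaled TPM in every group mean, and 8 were listed at 0 in at least 1 library. All 168 entered the test, since it took every gene above 0 in at least 1 library.

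At E the median gene of the set lay between 20.2 and 28.3 scaled TPM in all 18 libraries. At V it lay between 18.3 and 19.2 in HJZ, 17.5 and 19.1 in XG, 21.5 and 23.8 in HSB, 27.7 and 35.6 in CC, and 31.6 and 42.7 in ZHYS. At M it lay between 5.59 and 13.8 in the 18 libraries. The M libraries of each zone were below its E and V libraries, except in XLS, where V replicate 3 at 6.70 lay within the M-XLS range of 6.12 to 7.09. In the 5 zones of the rule these levels describe how the genes were chosen and are no test.

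**Figure D1:**
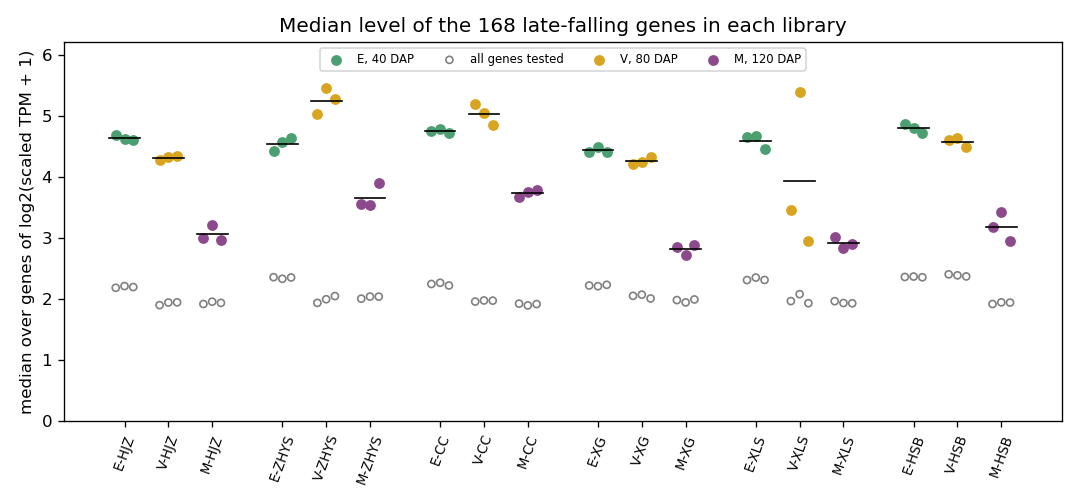
Median over the 168 late-falling genes of log2(scaled TPM + 1) in each of the 54 libraries (filled points; lines are group means, n = 3), beside the median of all 24648 tested genes (open points), by stage and zone. The M libraries are the lowest of their zone except in XLS, where the V replicates split, with replicate 2 at 5.40 and replicates 1 and 3 at 3.46 and 2.94.

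The fall was not equally wide in all zones. It reached 1 in 147 of the 168 genes in ZHYS, 134 in CC, 123 in XG, 116 in HJZ and 80 in XLS, beside 4.79%, 2.29%, 7.13%, 1.65% and 1.39% of all tested genes. The median fall on the log2 scale was 1.67 in ZHYS, 1.46 in XG, 1.22 in CC, 1.12 in HJZ and 0.94 in XLS. Of the 168 genes, 99 fell by at least 1 in exactly 3 zones, 42 in 4 and 27 in all 5. The commonest pattern was HJZ with ZHYS and CC, in 35 genes, followed by all 5 zones and by ZHYS with CC and XG, in 23. In 31 genes M was above V in at least 1 of the 5 zones.

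The 80 genes counted in XLS rested on V-XLS replicate 2. This library was the highest of the 3 V-XLS libraries in 163 of the 168 genes. It lay at least 1 above the M-XLS mean in 159 genes, replicate 1 in 23 and replicate 3 in 2. Without it only 5 genes fell by at least 1 in XLS, and the median fall was 0.21. The number of genes that meet the rule became 147 without V-XLS replicate 2, 219 without replicate 1 and 239 without replicate 3, and stayed between 163 and 173 when any other library was left out. Without zone XLS, with 3 of 4 zones required, 135 genes met the rule and 127 of them were among the 168. The XLS values of single genes below are therefore given by library or with their SD.

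The early step was flat in the mean over zones but seldom in each zone. Only 15 genes had V within 1 of E in all 5 zones, 51 in 4, 64 in 3 and 38 in 2 or fewer. In ZHYS 75 genes were already at least 1 higher at V than at E and 8 were lower, and in CC 36 were higher and 10 lower. In HJZ 45 were lower and 14 higher, in XLS 49 lower and 5 higher, and in XG 26 lower and 36 higher. The name of a gene set that falls only late thus fits the mean of the zones, and in single zones the level at V was often a peak (ZHYS) or already part of a decline (HJZ). Over the 5 zones the mean at M was at least 1 below E in 113 genes and above E in 3.

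Genes close to the limits differed little across them. The 3 genes just inside the limit on the fall had their third-largest fall at 1.0055 to 1.0112, and the 3 just outside at 0.9913 to 0.9986. At the lower limit on V minus E the values were -0.9966 to -0.9297 inside and -1.0347 to -1.0003 outside, and at the upper limit 0.9539 to 0.9954 inside and 1.01 to 1.02 outside. Of 373 genes that met the condition on the fall, 117 were left out because V was above E by more than 1, and 88 because it was below E by more than 1.

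Among the 7 genes with symbols, TIP1;1, the vacuolar water channel, showed the most varied zones. In ZHYS it was at 42.9, 38.9 and 42.6 scaled TPM at E, 192, 148 and 147 at V and 29.1, 25.6 and 26.5 at M. In CC it was at 35.4, 53.4 and 40.8 at E, but at 12.2, 10.7 and 13.7 at V and 11.9, 12.2 and 12.6 at M. The channel thus peaked at V in ZHYS and had reached its M level by V in CC. In XG it went from 63.3, 58.7 and 79.7 at V to 8.57, 8.77 and 9.42 at M, and in XLS V replicate 2 was at 74.3 while replicates 1 and 3, at 7.86 and 6.77, were at the M-XLS level.

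SIRK, the potassium channel, fell close to 0 in every zone by M, where all 18 libraries were between 0.096 and 0.726 scaled TPM. In ZHYS it went from 6.16, 6.67 and 7.49 at V to 0.367, 0.528 and 0.414 at M, with no overlap. In XG the drop came earlier: the 3 E libraries were at 10.6, 8.81 and 7.55, and the V libraries at 0.579, 0.799 and 0.489 were already close to M. CBL07, the calcium sensor, showed the same early drop in XG, from 5.51, 5.67 and 6.65 at E to 1.73, 1.71 and 1.56 at V, and was higher again at M (3.29, 3.57 and 3.31). In ZHYS CBL07 stayed at 15.9, 13.2 and 14.1 at V and then fell to 2.20, 3.02 and 2.57.

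MYBC2-L1, the MYB repressor, fell in ZHYS from 28.3, 29.1 and 31.2 scaled TPM at V to 5.21, 6.51 and 4.86 at M. In HJZ it hardly fell over the same step, from 9.04, 9.34 and 11.7 to 8.69, 6.75 and 9.05, and the ranges overlapped. NIN1, the neutral invertase, fell in CC from 143, 131 and 103 to 53.9, 54.5 and 54.8. In XG it went the other way, from 31.7, 30.03 and 36.6 at V to 61.2, 61.4 and 57.4 at M. VVYS1 went in ZHYS from 159, 137 and 128 to 40.5, 39.4 and 44.5. BIG8.1 was the rarest of the 7, at 13.1, 7.84 and 8.65 in V-CC and 1.22, 2.07 and 0.884 in M-CC.

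The most abundant genes of the set at V were led by LOC100262363, LOC100245111, LOC100243664 and LOC104879728. LOC104879728 had V within 1 of E in only 1 of the 5 zones. In ZHYS it peaked at V, at 267, 337 and 315 scaled TPM at E, 2516, 2256 and 2121 at V and 99.4, 94.9 and 114 at M. In CC it fell from 979, 1071 and 1045 at V to 163, 182 and 172 at M. In XG it had dropped before V, from 888, 925 and 798 at E to 150, 169 and 172 at V, and M stayed at 171, 163 and 154. In XLS its means were 1042 ± 64.5 at E, 230 ± 215 at V and 87.6 ± 2.58 at M (SD, n = 3). LOC100243664 peaked at V in ZHYS at 3397, 2686 and 2744, where E was at 114, 120 and 111 and M at 285, 270 and 355. In HJZ the same gene was highest at E, at 1341, 1817 and 1611.

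LOC100245111 fell from V to M in all 5 zones, by 1.13 in HJZ to 2.19 in ZHYS on the log2 scale, with V-XLS replicate 2 included. Its V was within 1 of E in only 2 zones. It went in CC from 2394, 2392 and 2392 scaled TPM at V to 741, 738 and 985 at M, and in ZHYS from 1836, 2036 and 2580 to 432, 477 and 486. LOC100262363, the most abundant on average, was poorly repeatable in V-ZHYS. Its replicates there were at 24.8, 310 and 3483, and its M-ZHYS replicates, at 985, 1519 and 978, were inside that range. The neighbouring pair LOC100252690 and LOC100257837 moved alike, with V-ZHYS at 987, 1251 and 1026 in the first and 861, 1339 and 993 in the second, and M-ZHYS at 197, 182 and 255 in the first and 189, 167 and 246 in the second.

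Among the 27 genes that fell by at least 1 in all 5 zones, the largest mean fall was 3.68 on the log2 scale, in LOC100255237. It went in XG from 43.9, 54.9 and 47.6 scaled TPM at V to 1.66, 0.593 and 0.699 at M, and in HJZ from 22.1, 28.4 and 49.3 to 0.720, 1.96 and 0.808. Its V-XLS replicates were at 22.3, 443 and 0.677. LOC100853085, next with a mean fall of 2.66, was tight in CC and HJZ but not in XLS. It went in CC from 346, 327 and 323 at V to 46.2, 50.5 and 44.7 at M and in HJZ from 222, 217 and 201 to 33.0, 26.1 and 33.2. Its V-XLS group was at 306 ± 468 scaled TPM (SD, n = 3), a spread above its mean. LOC100255020 went in ZHYS from 413, 639 and 405 to 68.6, 50.6 and 79.4. The other genes named by this criterion, LOC100242457, LOC100248834, LOC100241814, LOC100255377 and LOC100264474, had mean falls of 2.21, 2.16, 2.12, 2.12 and 2.04. All of these mean falls include V-XLS replicate 2.

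**Figure D2:**
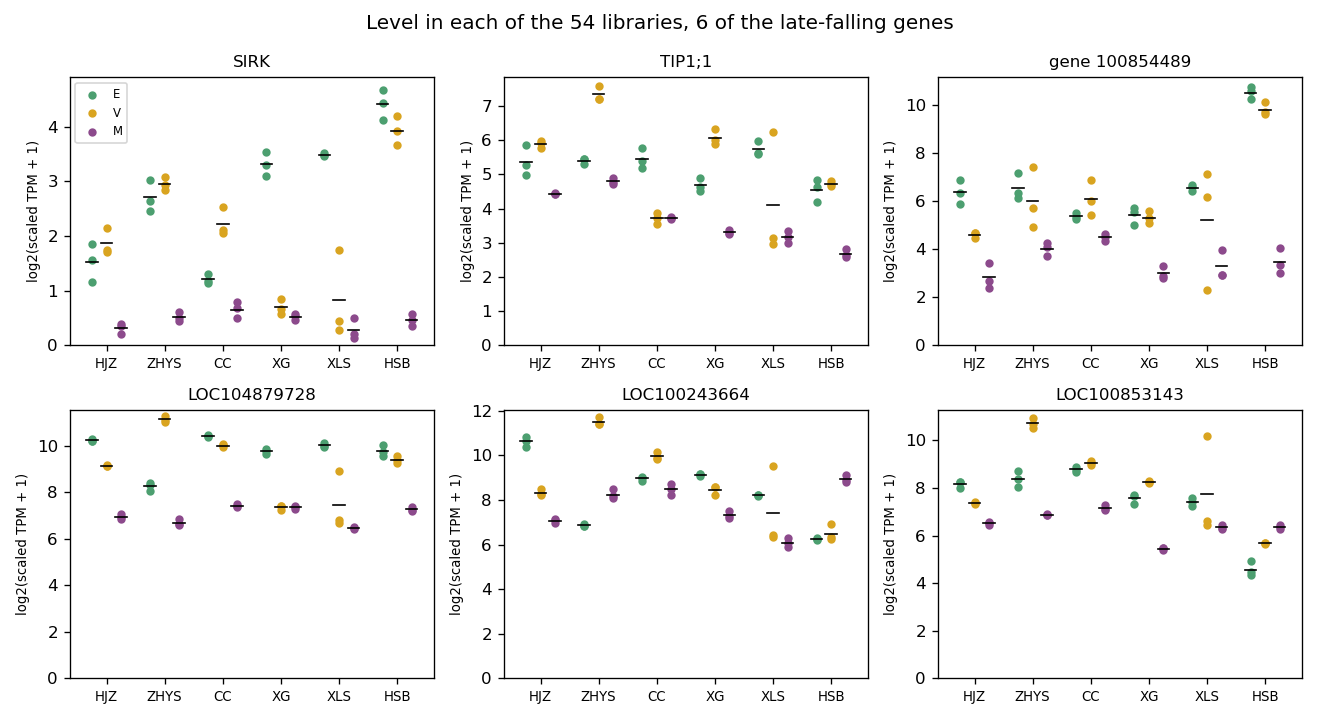
Level of 6 genes in each of the 54 libraries, as log2(scaled TPM + 1), by zone and stage (points are libraries, lines are means of 3). SIRK and LOC104879728 had dropped by V in XG and, in the mean, in XLS. Gene 100854489 was far higher in HSB than elsewhere at E and V. LOC100243664 and LOC100853143 fell in the 5 other zones but were higher at M than at V in HSB.

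In HSB, which the rule did not use, 81 of the 168 genes (48.2%) were lower at M than at V in the limma test (adjusted p below 0.05 over 24648 genes and a log2 difference above 1), where 12.7% of all tested genes were lower. Another 12 genes (7.14%) were higher, beside 8.48% of all tested genes, and 75 were called in neither direction. At an unadjusted p below 0.05 the same counts were 81 and 13, the added gene being LOC100262363 (1.88 ± 0.88, limma adjusted p = 0.0602). The median difference, M minus V, was -0.95 over the 168 genes and -0.0006 over all tested genes. Among the 14806 genes at least as abundant at V as the lowest of the 168, 13.5% were lower and 12.4% higher, with a median of 0.08. All 3 M-HSB libraries were below all 3 V-HSB libraries in 115 of the 168 genes (68.5%), beside 35.9% of all tested genes, and above them in 25 (14.9%), beside 31.8%.

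A fall from V to M was met in HSB by a larger share of these genes than of all genes, and some went the other way. From E to V in HSB only 0.564% of all tested genes were lower and 2.99% higher. Over the 5 zones of the rule the mean at M was above E in only 3 of the 168 genes. The fall in HSB therefore cannot tell a late fall from a lower level at M than at E. The scaling moved both the background and these genes. On TPM as deposited the median was -0.23 over all genes and -1.42 over the 168, with 20.2% of all genes lower and 4.22% higher. Of the 168 genes, 101 were then lower and 8 higher, which included all of the 81 and 8 of the 12. Under quantile normalization 77 of the 81 and all 12 kept their call. Falls made up 60.0% of the calls over all genes in the main test, 82.7% on TPM as deposited and 52.5% under quantile normalization. With the members chosen without V-XLS replicate 2, 65 of 147 were lower and 8 higher, and with zone XLS left out 70 of 135 were lower and 6 higher. The lower ripening-gene levels and the E-like overall median of V-HSB, given above, go with the V samples of this zone, and their part in the result was not tested.

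**Figure D3:**
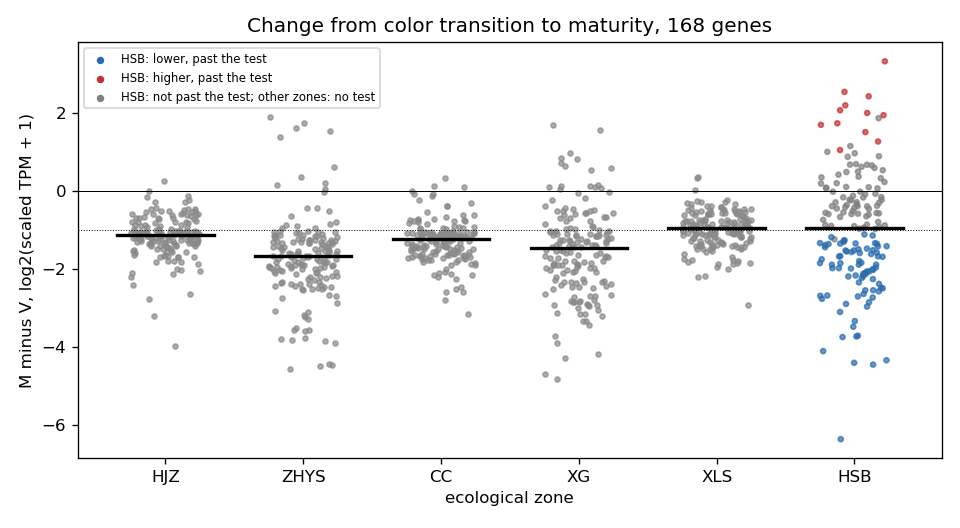
Difference between maturity and color transition (M minus V, log2(scaled TPM + 1)) of each of the 168 genes in each zone, with the median as a line; the dotted line is a fall of 1. In HSB, which was not used to choose the genes, 81 are lower (blue) and 12 higher (red) in the limma test, and the values run from -6.35 to 3.34.

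The largest fall in HSB was that of gene 100854489. It was at 1203, 1522 and 1709 scaled TPM in E-HSB, 1104, 842 and 781 in V-HSB and 9.02, 15.7 and 7.03 in M-HSB, a difference of -6.35 ± 0.61 (SE; limma, adjusted p = 7.92e-12). None of its 30 E and V libraries of the other zones was above 170.2. LOC100265907 fell from 33.5, 25.9 and 23.0 to 0.255, 0.388 and 0.253 (-4.44 ± 0.24), LOC100241814 from 437, 412 and 305 to 12.6, 24.5 and 16.3 (-4.39 ± 0.50), and LOC100260356 from 48.1, 34.6 and 27.8 to 0.566, 1.08 and 0.914 (-4.33 ± 0.36). LOC100242457 fell from 50.8, 41.2 and 36.1 to 1.35, 1.64 and 1.63 (-4.09 ± 0.69). In all 5 genes the V and M libraries of HSB did not overlap, which follows from their choice as the lowest in HSB. V was within 1 of E in them, as in 162 of the 168 genes in HSB.

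Of the 7 genes with symbols, 5 fell in HSB. SIRK was at 24.6, 20.7 and 16.5 scaled TPM in E-HSB, its highest levels in any zone, at 17.3, 14.2 and 11.7 in V-HSB and at 0.377, 0.479 and 0.286 in M-HSB (-3.47 ± 0.22, limma adjusted p = 4.31e-17). CBL07 went from 16.9, 14.6 and 10.2 to 2.29, 2.51 and 1.99 (-2.17 ± 0.26). TIP1;1 went from 27.0, 25.2 and 24.3 to 5.003, 6.02 and 5.19 (-2.05 ± 0.38). In all 3 the M libraries lay below every V library of the zone, as in 68.5% of the 168 genes and 35.9% of all tested genes. V was within 1 of E in all 3, as in 162 of the 168 genes. VVYS1 went from 85.0, 73.6 and 64.8 to 18.7, 17.6 and 16.7 (-2.01 ± 0.24), and MYBC2-L1 from 28.2, 20.9 and 21.4 to 7.75, 6.99 and 6.28 (-1.60 ± 0.17).

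NIN1 and BIG8.1 did not follow. NIN1 was at 57.0, 58.9 and 49.7 in V-HSB and 86.7, 95.0 and 86.9 in M-HSB, a difference of 0.69 ± 0.15 that is under the limit of 1 (limma, adjusted p = 0.000135), so the invertase had higher M values in both XG and HSB. BIG8.1 was at 0.055, 0 and 0.055 in V-HSB and 2.03, 2.74 and 1.33 in M-HSB (1.52 ± 0.46, limma adjusted p = 0.0042).

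No family of these symbol-bearing genes was called in HSB in all of its genes. The families were listed by symbol once the 168 genes were known. Of all tested genes 12.7% were lower at M than at V in HSB and 8.48% higher. These shares were 20.2% and 4.22% on TPM as deposited and 10.3% and 9.29% under quantile normalization. Of 10 aquaporins with a symbol, which carry water across the plasma membrane (PIP) or the tonoplast (TIP), 5 were lower at M than at V and none was higher by limma, where the highest difference was 0.46 in PIP2;1 (7 lower under quantile normalization, 6 on deposited TPM). The differences of these 5 were -5.63 for PIP1;1, -4.72 for PIP2, -2.15 for PIP1;2, -2.05 for TIP1;1 and -1.38 for PIP2;2. Only TIP1;1 met the rule: PIP1;1 and PIP2 had a mean V minus E of -4.48 and -1.74 over the 5 zones, below the limit of the rule, although PIP2 also fell by at least 1 from V to M in 3 zones. Of 8 calcineurin B-like genes, CBL07 and CBL04 (-1.95) were lower and CBL01 (2.16) was higher, with 4 lower on TPM as deposited, 3 lower under quantile normalization and 1 higher under both. K1.2, the other potassium channel with a symbol, had a difference of 0.57 ± 0.19 that was not called. MYBC2-L2 was near 0 in HSB, at 0.284 scaled TPM at V and 0 at M, and CWINV, the cell wall invertase, was higher at M (2.996 ± 0.43).

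For the 12 genes that were higher at M than at V in HSB, levels in HSB are set beside the other zones as a description only, because these genes were picked for M above V in HSB and for V above M elsewhere. Their V-HSB level was a median of 2.29 log2 units below their mean over the V groups of the 5 other zones and their E-HSB level 1.63 below, whereas their M-HSB level was 1.02 above. For the 81 genes that were lower the corresponding medians were 0.39 above at V, 0.65 above at E and 0.21 below at M. LOC100248142 had the largest rise, from 0.910, 0.676 and 1.37 scaled TPM in V-HSB to 10.3, 28.3 and 22.7 in M-HSB (3.34 ± 0.68, limma adjusted p = 4.89e-05). LOC100243664 rose from 74.2, 79.7 and 120 to 473, 548 and 448 (2.44 ± 0.36), and LOC100232922 from 0.275, 0.872 and 0.945 to 4.76, 9.78 and 6.40 (2.21 ± 0.58). The first and the third of these were rare in every HSB library before maturity, and LOC100243664 was not.

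LOC100265557 rose from 2.22, 2.59 and 8.80 to 23.6, 25.2 and 34.5 (2.55 ± 0.95, limma adjusted p = 0.0183), but its call was lost without V-HSB replicate 1 or 2 or without M-HSB replicate 3, at differences of 2.26 to 2.39. LOC100265996 (2.08 ± 0.77) lost its call without V-HSB replicate 1 or M-HSB replicate 2, at 1.62 and 1.87. Gene 104879541 and LOC104879540 had close to the same levels in most libraries. The first went from 15.9, 14.2 and 12.3 to 56.3, 56.6 and 67.1 and the second from 18.1, 18.9 and 16.02 to 59.7, 55.0 and 65.4 (2.01 ± 0.17 and 1.71 ± 0.15). In ZHYS the same pair fell, from 216, 187 and 194 to 14.9, 12.6 and 13.8 in the first and from 182, 160 and 178 to 14.8, 11.4 and 16.1 in the second. The remaining rises, besides that of BIG8.1, were 1.96 in LOC104879547, 1.75 in LOC104879618, 1.28 in LOC100257225 and 1.06 in LOC109121428.

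How many zones a gene fell in did not order the HSB calls. Of the 99 genes that fell by at least 1 in 3 zones, 46 were lower and 8 higher in HSB. Of the 42 that fell in 4 zones 22 were lower and none higher, and of the 27 that fell in all 5 zones 13 were lower and 4 higher. The early change in the 5 zones went along with the calls more visibly. Of the 74 genes with a mean V minus E below 0, 55 were lower in HSB and none higher (1, LOC100262363, at an unadjusted p below 0.05), with a median of -1.63. Of the 94 with a mean above 0, 26 were lower and all 12 rises were among them, with a median of -0.38. These are counts, and no test was made of the difference between them.

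**Figure D4:**
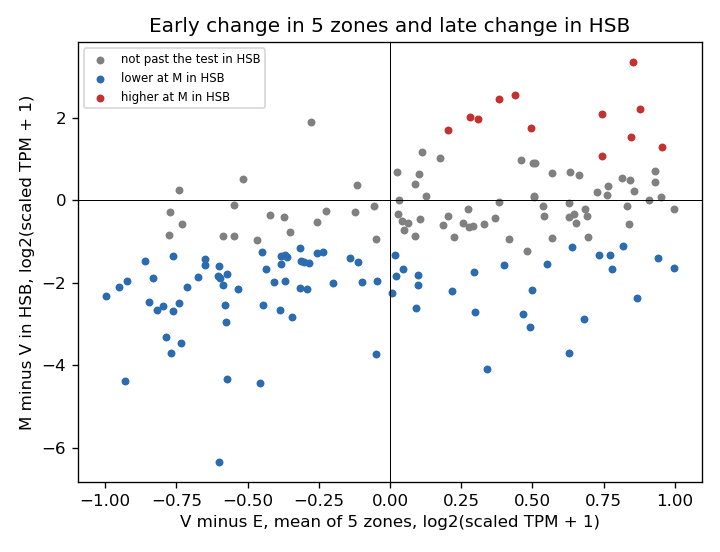
Mean difference between color transition and enlargement over the 5 zones of the rule (x axis) against the difference between maturity and color transition in HSB (y axis), both in log2(scaled TPM + 1), one point per gene, colored by the limma call in HSB. All 12 rises lie at a mean V minus E above 0, and 55 of the 81 falls lie below 0. All tested genes were not split in the same way.

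From E to V in HSB, 1 of the 168 genes was lower (0.595%) and 3 were higher (1.79%), with a median of -0.29. Few genes of any kind changed there, with 0.564% of all tested genes lower and 2.99% higher and a median of 0, so the shares among the 168 were close to the background and say nothing particular of these genes. The 4 genes, named after their values were seen apart from LOC100853143, were LOC100241117 (-1.10 ± 0.28), LOC100243201 (1.55 ± 0.44), LOC100853143 (1.11 ± 0.41) and gene 100243794 (1.01 ± 0.27). LOC100243201 was at 3.01, 3.96 and 2.52 scaled TPM in E-HSB, 11.6, 10.5 and 11.1 in V-HSB and 1.76, 2.81 and 1.91 in M-HSB, so in HSB it peaked at V. These counts depended on single libraries: the 1 lower gene became 0 without E-HSB replicate 3 and 2 without E-HSB replicate 2 or V-HSB replicate 1, and the 3 higher became 1 without E-HSB replicate 2 or 3 or V-HSB replicate 2 or 3.

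The rule used the enlargement period only through the mean over zones, so the differences among the 5 E groups were tested. They exceeded 1 on the log2 scale, with a limma F-test at an adjusted p below 0.05, in 100 of the 168 genes (59.5%), beside 17.6% of all tested genes and 21.9% of the genes at least as abundant. The median range of the 5 E means was 1.37 over the 168 genes and 0.48 over all tested genes. The rule keeps genes that change by at least 1 in several zones, and neither background is matched for such changes. How much of the excess comes from the choice of the genes was not tested. Of the 100 genes, 37 were highest in E-CC, 22 in E-HJZ, 21 in E-ZHYS, 17 in E-XLS and 3 in E-XG. They were lowest in E-ZHYS in 33, in E-HJZ in 30, in E-XG and E-XLS in 13 each and in E-CC in 11. The group medians of the set at E lay between 4.46 in E-XG and 4.76 in E-CC on the log2 scale. Its library medians were 20.2 to 21.4 scaled TPM in E-XG and 25.3 to 26.5 in E-CC. A shift of the set as a whole between zones was not tested.

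Single genes differed widely at E. LOC100243664 had means of 1590 ± 239 scaled TPM in E-HJZ and 115 ± 4.38 in E-ZHYS (SD, n = 3; limma F-test, adjusted p = 3.97e-10), with E-CC, E-XG and E-XLS between them at 498, 562 and 296. LOC109123939, named after its values were seen, had 21.0 ± 5.38 in E-XLS and 14.6 ± 5.45 in E-ZHYS but 0.029 ± 0.050 in E-XG and 1.06 ± 0.971 in E-HJZ (adjusted p = 3.46e-08). Gene 104880688, also named afterwards, was highest in E-XG, at 260 ± 41.6, and lowest in E-CC, at 22.5 ± 3.29. Among the genes with symbols, SIRK had a range of 2.28 and was highest in E-XG and E-XLS of the 5 zones, VVYS1 a range of 2.32 and MYBC2-L1 of 1.47, and all 3 passed the test, as did CBL07 at 1.26. TIP1;1 (range 1.05, adjusted p = 0.129), NIN1 (0.48) and BIG8.1 (0.72) did not. The widest range of the 168, 4.80 in LOC100248142, rested on uneven replicates, with E-HJZ at 18.6, 145 and 42.8 and E-XLS at 4.55, 81.1 and 9.44.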

How the data were processed

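The authors mapped clean reads with HISAT2, counted fragments per gene with featureCounts and deposited TPM, rounded to 2 decimals, for 25133 genes by NCBI Gene number. The study's methods point to an Ensembl Plants grapevine annotation and name no assembly, while the table's IDs are NCBI Gene numbers, so no build could be assigned. Symbols come from the RefSeq table of ASM3070453v1, which held 23256 IDs. It gives no gene products, so the functional and cell type lists planned could not be applied. Coordinates from the RefSeq table were used only for the order of neighbouring genes. No sequences were used, and 0 columns were left out. Fold changes on the log2(value + 1) scale understate low genes.

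Libraries were divided by median-of-ratios factors (0.644 to 1.453, from 16546 genes above 0 in all libraries). limma 3.58.1 (R 4.3.3) fitted 18 group means to log2(scaled TPM + 1), a pseudocount of 1, with a variance trend and 36 residual degrees of freedom. Adjustment was Benjamini-Hochberg over 24648 genes above 0 in at least 1 library. The fit was tested on simulated data. TPM keeps no depth, so precision is known only from 3 replicates, and no 2 libraries were identical (0 pairs). Near-identical genes may share reads.

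Named genes were the 8 highest at V, the 8 with the largest mean fall among those falling in all 5 zones, the 5 lowest and 5 highest in HSB, those with a symbol, those near the limits, and those of opposite direction without overlap in HSB. Members, lists and this rule were chosen with earlier results of these data known. Alternatives were TPM as deposited, quantile normalization, a pseudocount of 0.1, a minimum mean of 1, stricter limits of 1.5 and 0.5, only the groups compared, unadjusted p, a replicate block and leaving out each library. Leaving out zone XLS, or choosing members without V-XLS replicate 2, was added after seeing the data. Python 3.11.15, numpy 2.4.6, pandas 2.3.3 and matplotlib 3.10.9 were used.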

Additional observations from a re-analysis of the deposited data

Results flagged for a closer look

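In 37 of the 168 genes the 3 M libraries were below the 3 V libraries in each of the 5 zones of the rule. The rule chose the genes by their fall from V to M in these same libraries. The count of 37 therefore describes the choice and is no test. Its counterpart among all tested genes was not computed. In 5 of these 37 the M libraries were above the V libraries in HSB. Of all tested genes 31.8% had all M-HSB libraries above all V-HSB libraries, and of the 168 genes 14.9%, so such a count is not particular to these genes. The difference between HSB and the other zones was not tested. LOC100243664 had a difference, M minus V, of 2.44 in HSB (limma, adjusted p = 1.91e-07). The other genes did not reach the limit of 1 there: LOC100243703 had 0.90, from 27.3, 33.5 and 32.6 scaled TPM at V to 61.2, 59.5 and 55.9 at M, LOC100259018 had 0.89, from 18.2, 17.9 and 20.0 to 34.8, 35.5 and 36.2, LOC100242056 had 0.70, from 35.4, 34.3 and 32.3 to 56.8, 58.8 and 52.3, and LOC100853143 had 0.67, from 48.8, 50.7 and 51.0 to 75.4, 85.9 and 79.8. In V-HSB and V-ZHYS, LOC100853143 was at 48.8 to 51.0 and at 1449 to 1954 scaled TPM. In XLS the gap between V and M of these genes was narrow outside V-XLS replicate 2, with LOC100853143 at 96.8 and 86.6 in V replicates 1 and 3 and 76.7, 77.9 and 85.3 at M.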

How the results depend on the processing

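The membership of the set moved with the processing: 168 genes became 92 on TPM as deposited (90 shared), 322 with a pseudocount of 0.1 (152 shared), 14 with limits of 1.5 and 0.5, and 147 to 239 when single libraries were left out, the extremes being V-XLS replicates. In HSB, the 81 genes lower at M became 80 to 84 and the 12 higher became 9 to 14 when single HSB libraries were left out. The 12 became 6 with members chosen without zone XLS. Of all genes, 3130 were lower and 2091 higher, against 4970 and 1039 on TPM as deposited and 5199 lower with a pseudocount of 0.1. From E to V in HSB the 1 lower gene became 5 on TPM as deposited, 4 under quantile normalization, 0 with members chosen without zone XLS or without V-XLS replicate 2, and 0 to 2 without single libraries. The 3 higher genes became 6 with a pseudocount of 0.1 and 1 to 4 without single libraries. LOC100257837 (0.10) reversed to -0.43 on TPM as deposited and -0.39 under quantile normalization. LOC100255237 (-0.11) reversed to 0.37 under quantile normalization and ran from -0.47 to 0.10 when single HSB libraries were left out, above 0 without M-HSB replicate 1 or 3. Neither gene was called. For these moves the cause was not tested. The replicate numbers did not pair the libraries (correlation of same-numbered V-HSB and M-HSB deviations 0.08, -0.04 and 0.09), and with the replicate block 81 genes were lower and 12 higher. Changes in genes of a few TPM are limited by an unknown depth.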

Other observations

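In V-ZHYS, 3 of the 168 genes spread over more than 100-fold between the replicates, and in all 3 replicate 1 was the lowest and replicate 3 the highest. LOC100262363 was at 24.8, 310 and 3483 scaled TPM, LOC100265557 at 1.56, 25.2 and 345, and LOC100265996 at 0.554, 8.99 and 86.9 in replicates 1 to 3. In V-HSB the same genes were at 111, 151 and 429, at 2.22, 2.59 and 8.80, and at 1.98, 4.27 and 10.6. Their role in the flesh is not annotated in the table used here.

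By gene order on ASM3070453v1, 11 pairs of the 168 genes had at most 2 genes between them and 4 pairs had none. In the adjacent pair LOC104879618 and LOC104879547 both genes fell in all 5 zones and were higher at M than at V in HSB, by 1.75 and 1.96. In the adjacent pair LOC100258599 and NIN1 the differences in HSB were -0.64 and 0.69, and in LOC100263768 and LOC104879540 they were -0.96 and 1.71. Reads shared between similar neighbours cannot be told apart in TPM.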
